A study of Mus musculus with 8 samples.

Results

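Control mouse embryoid bodies at day 4 of culture were set against control embryoid bodies at day 2, with 1 RNA-seq library on each side. Every gene whose FPKM reached 1 in either library was counted, which took in 12314 of the 22558 genes in the table. FPKM is the number of sequenced fragments of a gene divided by transcript length and by library size. For each gene the difference of log2(FPKM + 1), day 4 minus day 2, was taken. A gene is called higher or lower at day 4 when that difference reached 1 in size, which is a 2-fold difference on this scale. With 1 library per day there is no replicate check, no test was made, and every value below describes these libraries.

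The study followed R1 and R1/E mouse embryonic stem cells, grown on feeder cells and then moved into embryoid body culture, and it asked how the POU factor Oct6 acts in neural differentiation. The control embryoid bodies at days 4, 2 and 6 are labelled as controls and carry no other treatment label. The induced embryoid bodies of the same days were made from cells in which doxycycline switches on Oct6. The labels give neither the line of each library nor whether controls received doxycycline, and they name a serum-free neural protocol while the library titles carry an unexplained fbs prefix, so the line and the medium of each library are not known here.

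Embryonic stem cells hold a network of transcription factors centred on Oct4 (Pou5f1), Sox2 and Nanog, supported in the naive state by Esrrb, Klf4, Nr0b1 and others. When differentiation begins, the naive genes are shut off first, the cells pass through a stage like the postimplantation epiblast with Fgf5, Otx2 and Dnmt3b, and Wnt, Nodal and BMP signals then start the primitive streak, from which mesoderm and definitive endoderm arise. Embryoid bodies also form an outer layer like the visceral endoderm, which secretes apolipoproteins and other carriers. In bulk RNA, fewer cells of a type and less RNA per cell cannot be told apart.

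Short RNAs and promoters give a first view of the day 4 pattern. The 5 precursor genes of the miR-302/367 cluster, a family of stem cell microRNAs, were all higher at day 4, while the 7 genes of the related miR-290 cluster gave no common direction. The mature sequences are shown because members of both clusters share a seed, the bases by which a microRNA recognises its targets. They are RefSeq sequences on GRCm38.p6, with bases 2 to 8 in capitals, first those of the miR-302/367 cluster and then those of the miR-290 cluster.
miR-302b-3p: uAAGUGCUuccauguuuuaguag
miR-302c-3p: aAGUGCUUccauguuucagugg
miR-302d-3p: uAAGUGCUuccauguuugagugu
miR-367-3p: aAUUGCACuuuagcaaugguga
miR-291a-3p: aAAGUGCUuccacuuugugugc
miR-294-3p: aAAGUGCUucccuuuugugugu
miR-295-3p: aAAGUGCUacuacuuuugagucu
The seed AAGUGCU is the same in miR-302b, miR-302d, miR-291a, miR-294 and miR-295. The RefSeq form of miR-302c starts 1 base later and reads AGUGCUU at the same positions, and miR-367 has the unrelated seed AUUGCAC. Mir302b had 17.7 FPKM at day 4 and was listed at 0 at day 2, and Mir302c had 25.7 FPKM at day 4 and was also listed at 0 at day 2. Mir302a had 10.1 FPKM at day 4 and was listed at 0 at day 2. Mir302d had 20.5 FPKM at day 4 and 2.52 FPKM at day 2, and Mir367 had 32.02 FPKM at day 4 and 1.22 FPKM at day 2. These genes lie on the plus strand inside Larp7 (chr3:127239872-127256266, minus strand, mm9), which encodes a protein of the 7SK RNA complex and had 97.9 FPKM at day 4 and 31.6 FPKM at day 2. Whether reads were stranded is not known here, so those of Larp7 and of the microRNA precursors cannot be told apart, and FPKM of such short genes is uncertain. From the miR-290 cluster, Mir294 had 19.4 FPKM at day 4 against 32.4 FPKM at day 2, and Mir295 had 32.9 FPKM at day 4 against 51.2 FPKM at day 2. Mir291a had 2.38 FPKM at day 4 and 1.27 FPKM at day 2, and none of these 3 reached a 2-fold difference. Neither did Mir290, Mir291b and Mir293, which had 1.37, 11.01 and 8.30 FPKM at day 4 and 1.01, 12.7 and 16.7 FPKM at day 2. Mir292 did, with 2.80 FPKM at day 4 and 0.422 FPKM at day 2, and was called higher.

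Promoter letters were counted around each annotated start site, from 250 bases before to 50 bases after it, in mm9. Of the genes lower at day 4, 3.83% (21 of 549, Wilson 95% interval 2.52 to 5.78%) held the octamer ATGCAAAT, the site of POU factors such as Oct4, on either strand. The share was 1.55% (0.98 to 2.44%) among genes higher at day 4, 1.04% (0.86 to 1.25%) among counted genes with neither call and 1.21% among all counted genes. The TCF/LEF letters ATCAAAG, the end point of Wnt signalling, were held by 3.28% (2.40 to 4.46%) of the higher genes and 2.54% of all counted genes, and those intervals overlap. The T-box letters GGTGTGA, the FOXH1 letters AATCCACA, the GATA letters AGATAA and the KLF letters GGGGTGTGG were found in 3.19%, 0.43%, 7.33% and 2.16% of the higher genes, against 3.37%, 0.51%, 6.30% and 1.66% of all counted genes. None of the 6 letter strings contains another. In the lower genes the TCF/LEF, T-box, FOXH1, GATA and KLF letters were found in 2.37%, 3.64%, 0.73%, 7.65% and 1.28%. The windows of lower genes also had a lower median GC content, 56.67% against 60.33% in all counted genes, and the octamer is mostly A and T. The part of base content in the octamer share was not tested. A match is a description of letters and no evidence of binding. Stretches of 80 bases that hold the letters in capitals are shown for 2 genes lower at day 4, Zfp42 (chr8:44392506-44392585, minus strand) and Zfp296 (chr7:20162489-20162568, plus strand), with the octamer read on the opposite strand.
Zfp42: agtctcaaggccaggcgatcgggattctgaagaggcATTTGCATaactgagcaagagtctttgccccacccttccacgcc
Zfp296: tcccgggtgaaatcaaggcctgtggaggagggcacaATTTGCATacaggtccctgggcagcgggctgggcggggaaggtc
For 3 genes higher at day 4 the TCF/LEF letters are in capitals, on either strand, in Sp5 (chr2:70312840-70312919, plus strand), Mixl1 (chr1:182627184-182627263, minus strand) and Msgn1 (chr12:11215914-11215993, minus strand).
Sp5: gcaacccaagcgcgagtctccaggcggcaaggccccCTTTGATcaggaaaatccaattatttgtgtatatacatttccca
Mixl1: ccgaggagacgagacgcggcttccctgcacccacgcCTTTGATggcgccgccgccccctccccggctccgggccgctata
Msgn1: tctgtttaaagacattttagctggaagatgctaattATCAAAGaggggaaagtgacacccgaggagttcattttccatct
The letters begin 186 bases before the start site in Zfp42, 111 in Zfp296, 104 in Sp5, 62 in Mixl1 and 203 in Msgn1.

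Of the 12314 counted genes, 1186 (9.63%) were at least 2-fold higher at day 4 and 572 (4.65%) at least 2-fold lower, so 14.3% changed by this rule. Each list count below is to be read beside these shares. At 4-fold the counts were 195 higher and 101 lower, and at 16-fold they were 21 and 2. The median difference over all counted genes was 0.12, and the middle 90% of genes lay between -0.95 and 1.32. Among changed genes 67.46% were higher, and 52.53% after quantile normalisation, with 851 higher and 769 lower, so the excess of higher genes depends on scaling. Just inside the filter, 9130019O22Rik had 0.977 FPKM at day 4 and 1.0002 FPKM at day 2, and just outside it Leng9 had 0.999 FPKM at day 4 and 0.218 FPKM at day 2. The day 4 library was the deeper, with 1.49 times the depth of day 2 by the size of the smallest FPKM step, or an estimated 53400000 against 35900000 fragments. An FPKM of 1 in a transcript of 2 kb then rests on about 107 fragments at day 4 and 71.8 at day 2, a counting error of 9.68% and 11.8%. Of 12 common reference genes, 10 stayed within 2-fold, among them Actb with 455 FPKM at day 4 and 462 at day 2 and Tbp with 25.99 at day 4 and 26.4 at day 2. B2m and Pgk1 were the other two and were higher at day 4.

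**Figure D1:**
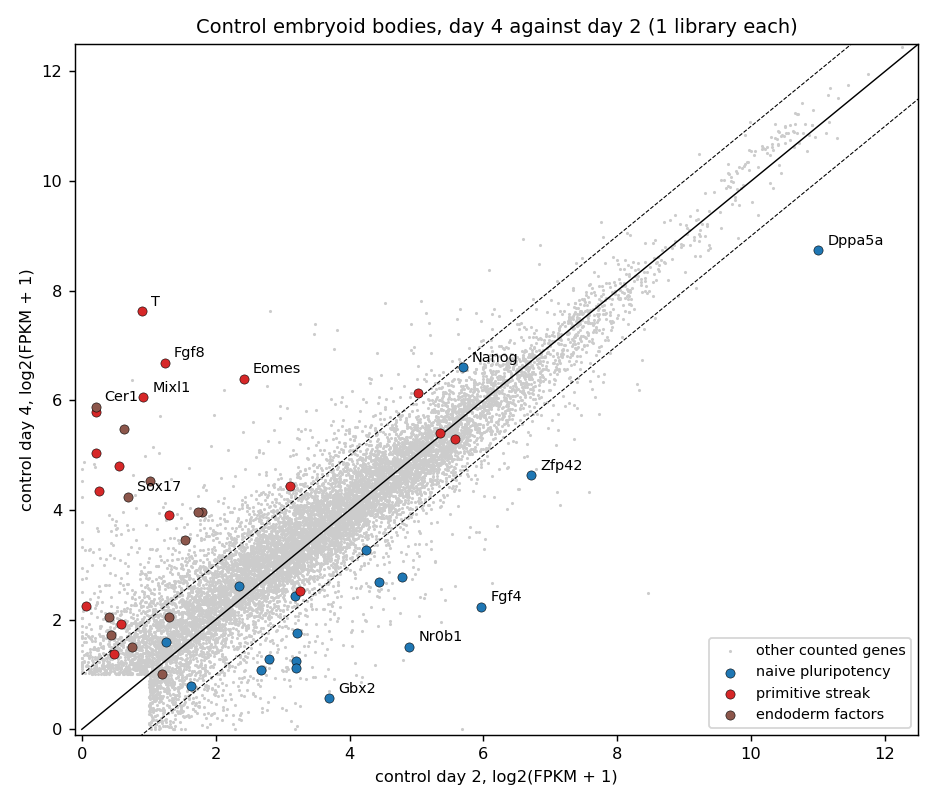
Each point is a counted gene, with log2(FPKM + 1) in the control day 4 library on the vertical axis and in the control day 2 library on the horizontal axis. Dashed lines mark a 2-fold difference, and the primitive streak and endoderm genes T, Fgf8, Mixl1, Eomes, Cer1 and Sox17 lie above the upper line while Fgf4, Nr0b1, Gbx2, Zfp42 and Dppa5a lie below the lower one.

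The labelled state, embryonic stem cells early in differentiation, was present in both libraries by its markers, with Pou5f1 at 495 FPKM at day 4 and 890 at day 2. Sox2 was lower at day 4, with 35.5 FPKM at day 4 and 135 at day 2. Nanog had 96.5 FPKM at day 4 and 50.6 at day 2, Fgf5 had 88.1 at day 4 and 25.4 at day 2, and Otx2 had 94.6 at day 4 and 58.0 at day 2. Embryonic globin, as a mark of blood cells, was near 0, with Hbb-bh1 at 0.121 FPKM at day 4 and 0.355 at day 2. The neural factors Sox1 and Pax6, which mark the lineage that the protocol names, were near or below the filter at both days, while other genes of the neural lists, such as Stmn2 with 61.2 FPKM at day 4 and 63.6 at day 2, were well above it. Sox1 had 0.0307 FPKM at day 4 and 0.536 at day 2, and Pax6 had 0.138 FPKM at day 4 and 1.09 at day 2. Feeder cells would carry fibroblast markers. Of 12 such genes 6 were counted, 2 were higher (Tagln and Acta2) and 0 lower, and the median was 0.06. Their summed FPKM was 88.2 at day 4 and 16.9 at day 2, and Tagln, with 71.6 FPKM at day 4 and 3.38 at day 2, gave most of the day 4 sum. Col1a1 had 1.72 FPKM at day 4 and 2.01 at day 2, and Dcn had 0.334 at day 4 and 1.46 at day 2. The part of feeder RNA in the differences was not tested.

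The naive pluripotency genes were lower at day 4. All 18 of the list were counted, 12 were at least 2-fold lower and 0 higher, and the median difference was -1.67, beside 0.12 over all genes. Of these, 16 also reached an FPKM of 1 at day 4, and the others, Gbx2 and Prdm14, passed the filter through day 2 alone. Fgf4, the growth factor that primes stem cells for differentiation through ERK, had 3.71 FPKM at day 4 and 61.6 at day 2. Nr0b1, a corepressor of the naive network, had 1.84 FPKM at day 4 and 28.7 at day 2. Gbx2, a homeobox factor that also marks hindbrain, had 0.483 FPKM at day 4 and 11.9 at day 2. These were the widest differences of the list, between -3.73 and -3.12 on the log2 scale. Dppa5a, an RNA-binding protein and the most abundant member, had 427 FPKM at day 4 and 2052 at day 2. Zfp42, a zinc finger gene long used as a naive marker, had 23.8 FPKM at day 4 and 104 at day 2, and Esrrb, an orphan nuclear receptor, had 5.86 at day 4 and 26.5 at day 2. Klf4 and Klf2, Krüppel-like factors of the naive network, differed by -1.59 and -1.75.

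Nanog was an exception in the list. It had 96.5 FPKM at day 4 and 50.6 at day 2, a difference of 0.92 that stayed short of 2-fold, and with day 6 its levels were 50.6, 96.5 and 20.6 FPKM at days 2, 4 and 6. Tdgf1, the Nodal co-receptor Cripto, ran in the same way with 412, 608 and 72.5 FPKM at days 2, 4 and 6. Both genes are also known from the epiblast around the streak. The other naive members short of 2-fold were Klf5, Tcfcp2l1, Prdm14, Tbx3 and Dppa3, and their levels were lower than that of Nanog. Tbx3 had 5.11 FPKM at day 4 and 4.10 at day 2, and Prdm14, a germ cell and naive regulator, had 0.732 at day 4 and 2.09 at day 2.

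Of 14 general pluripotency genes, all counted, 6 were at least 2-fold lower and 0 higher, with a median of -0.86. Sox2 had 35.5 FPKM at day 4 and 135 at day 2, a difference of -1.90, while Pou5f1 differed by -0.84. Utf1, a chromatin protein of undifferentiated cells, had 71.9 FPKM at day 4 and 320.3 at day 2, a difference of -2.14. Dppa2 and Dppa4, partner proteins that open promoters in the early embryo, had 5.32 and 15.2 FPKM at day 4 against 68.8 and 80.7 at day 2. The RNA-binding proteins Lin28a and Lin28b and the zinc finger factor Sall4 differed by 0.15, -0.12 and -0.07.

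The primed epiblast list split. Of its 12 genes, all counted, 1 was higher and 6 lower, with a median of -0.94. Fgf5, the standard marker of the postimplantation epiblast, had 88.1 FPKM at day 4 and 25.4 at day 2. Otx2, a homeobox factor that sets up the primed state and later the forebrain, had 94.6 FPKM at day 4 and 58.0 at day 2, and Sox4 had 29.6 at day 4 and 15.3 at day 2, both under 2-fold. The lower members were Tcf15, Fgf15, Pou3f1, Dnmt3a, Foxd3 and Lef1. Tcf15, a bHLH factor of cells about to leave the naive state, had 4.12 FPKM at day 4 and 42.0 at day 2. Pou3f1, the gene of Oct6 itself, had 10.1 FPKM at day 4 and 64.3 at day 2. The members thus held their highest control level at different days, Pou3f1 and Tcf15 at day 2 and Fgf5 and Otx2 at day 4.

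DNA methylation genes were lower or little changed. Of 11, all counted, 5 were at least 2-fold lower, where 4.65% of all counted genes were, and 0 higher, with a median of -0.87. Dnmt3l, the cofactor of the de novo methyltransferases, had 19.1 FPKM at day 4 and 190.1 at day 2. Dnmt3a, a de novo enzyme, had 19.9 FPKM at day 4 and 90.4 at day 2, while its relative Dnmt3b had 248 at day 4 and 348 at day 2 and the maintenance enzyme Dnmt1 had 34.9 at day 4 and 50.9 at day 2. Tet1 and Tet2, which oxidise methylcytosine, had 8.81 and 1.44 FPKM at day 4 against 36.4 and 5.91 at day 2, and Tet3 differed by 0.16. Of 14 germ cell and 2-cell stage genes 10 were counted, 5 were lower and 1, Prdm1, was higher, with a median of -0.89. All 10 reached an FPKM of 1 at day 2 but only 6 did at day 4. Those that passed through day 2 alone, among them Dazl, Slc25a31 and Stk31, had to be lower at day 4, so count and median describe and do not support. Mael, a piRNA pathway protein, had 2.70 FPKM at day 4 and 20.5 at day 2, and Dazl, a germ cell RNA-binding protein, had 0.542 at day 4 and 4.17 at day 2.

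Several primitive streak genes were among the widest differences of the comparison. Of 20, 17 were counted, 13 were at least 2-fold higher and 0 lower, with a median of 2.61. A member that passed the filter through day 4 alone had to be higher there, and 9 of the list reached an FPKM of 1 at day 4 but not at day 2, so count and median describe and do not support. T (Brachyury, chr17:8627288-8635361, plus strand), the T-box factor of the streak, had 196 FPKM at day 4 and 0.856 at day 2, a difference of 6.73. That was the widest among genes with 5 FPKM or more in either library, small RNA, predicted, Rik and pseudogene symbols left out. Fgf8, needed for cells to leave the streak, had 102 FPKM at day 4 and 1.37 at day 2. Mixl1, a homeobox factor of mesendoderm, had 65.7 FPKM at day 4 and 0.888 at day 2. Eomes, a T-box factor of mesoderm and definitive endoderm, had 83.1 FPKM at day 4 and 4.36 at day 2. The levels at day 4 were thus of the order of those of Nanog, where at day 2 they were near or below the filter except for Eomes. Lhx1 and Gsc, factors of the anterior streak and organiser, had 54.4 and 31.9 FPKM at day 4 and 0.161 and 0.155 at day 2.

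Evx1, Cdx2 and Tbx6 had lower day 4 levels than the streak genes above. The difference of Evx1, 4.08, was still wider than that of Eomes, 3.97. Evx1 had 19.2 FPKM at day 4 and 0.200 at day 2, Cdx2 had 2.77 at day 4 and 0.495 at day 2, and Tbx6, a factor of paraxial mesoderm, had 1.60 at day 4 and 0.400 at day 2. The 3 members below the filter were Cdx1, Cdx4 and Wnt3a, with 0.470, 0.0597 and 0.409 FPKM at day 4. Nodal and Lefty2, listed with the streak, were already present at day 2: Nodal had 38.4 FPKM at day 4 and 46.7 at day 2, and Lefty2 had 41.2 at day 4 and 39.8 at day 2. Hox genes, which follow the streak in the embryo, were nearly all under the filter. Of 17, only Hoxd13 was counted, with 0.177 FPKM at day 4 and 1.86 at day 2. It passed the filter through day 2 alone and so had to be lower at day 4.

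**Figure D2:**
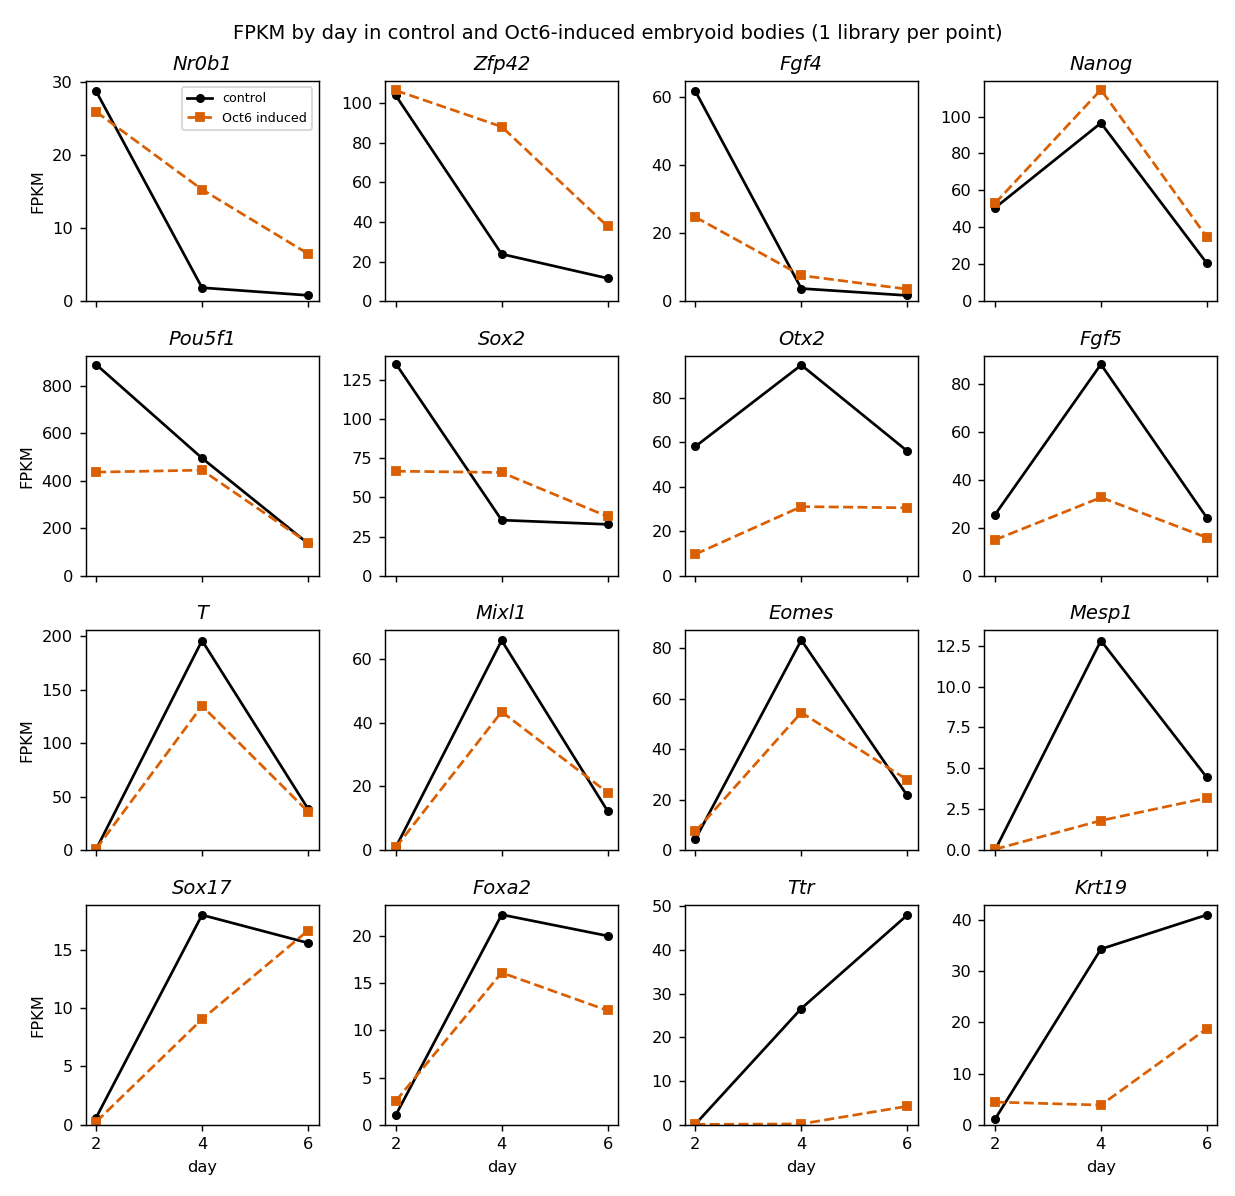
FPKM of 16 genes (vertical axes, from 0) at days 2, 4 and 6 in control (black) and Oct6-induced (orange) embryoid bodies, with 1 library per point. In control, Nr0b1, Zfp42 and Fgf4 are lowest at day 6, Nanog, Otx2, Fgf5, T, Mixl1, Eomes and Mesp1 are highest at day 4, and Ttr and Krt19 are higher at day 4 than at day 2 and higher again at day 6.

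Of 20 nascent mesoderm genes 13 were counted, 8 were higher and 0 lower, and the median was 1.23. As 8 of the 13 passed the filter through day 4 alone, and so had to be higher there, count and median describe and do not support. Mesp1, the factor of the earliest cardiac mesoderm, had 12.8 FPKM at day 4 and was listed at 0 at day 2. Kdr, the VEGF receptor of blood and vessel precursors, had 6.97 FPKM at day 4 and 0.263 at day 2, and Hand1, a bHLH factor of lateral and extraembryonic mesoderm, had 7.65 at day 4 and 0.280 at day 2. Snai1, a repressor of E-cadherin, had 11.7 FPKM at day 4 and 1.65 at day 2. The 7 members below the filter, among them Nkx2-5, Foxc1, Foxc2 and Osr1, had at most 0.662 FPKM at day 4. Of 12 heart sarcomere genes 5 were counted, 4 of them through day 4 alone, and 4 were higher, led in level by Myl7, an atrial myosin light chain, with 8.76 FPKM at day 4 and 1.17 at day 2, whereas Tnnt2 and Myh7 had 0.132 and 0.106 FPKM at day 4. Of 20 blood and endothelium genes 8 were counted, 1 was higher and 2 lower, and the median was -0.045. Flt1, a VEGF receptor, was the higher one, with 10.6 FPKM at day 4 and 0.432 at day 2. It passed the filter through day 4 alone, and the lower genes, Cd34 and Tek, passed through day 2 alone, so the filter set these directions.

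Endoderm factors were higher at day 4 in 9 of 12 counted genes, from a list of 14, with 0 lower and a median of 2.04. Here 6 of the 12 passed the filter through day 4 alone. Cer1, a secreted Nodal, BMP and Wnt antagonist, had 57.9 FPKM at day 4 and 0.155 at day 2. Cxcr4, a chemokine receptor of definitive endoderm and mesoderm, had 43.4 FPKM at day 4 and 0.545 at day 2. Foxa2 and Sox17, factors of definitive and visceral endoderm, had 22.2 and 17.96 FPKM at day 4 and 1.02 and 0.608 at day 2. Gata4 and Gata6 had 14.5 and 14.6 FPKM at day 4 and 2.47 and 2.33 at day 2. Sox7, a factor of parietal and visceral endoderm, was no higher, with 1.002 FPKM at day 4 and 1.28 at day 2.

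Of 20 products of the visceral endoderm 16 were counted, 12 were higher and 0 lower, with a median of 1.85. Here 10 of the 16 passed the filter through day 4 alone, so the same limit holds. Ttr, a thyroid hormone carrier, had 26.6 FPKM at day 4 and 0.150 at day 2, and Apob, the backbone of lipoproteins, had 12.98 at day 4 and 0.422 at day 2. Apoa1 had 8.68 FPKM at day 4 and 0.0752 at day 2, and Afp, the fetal albumin-like carrier, had 3.64 at day 4 and 0.0267 at day 2. The uptake receptors of this layer were present on both days. Lrp2 had 22.2 FPKM at day 4 and 15.9 at day 2, Cubn had 15.0 at day 4 and 7.26 at day 2, both under 2-fold, while Amn, the partner of Cubn, had 8.63 at day 4 and 1.17 at day 2. Dab2, an endocytic adaptor, had 45.7 FPKM at day 4 and 12.3 at day 2.

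**Figure D3:**
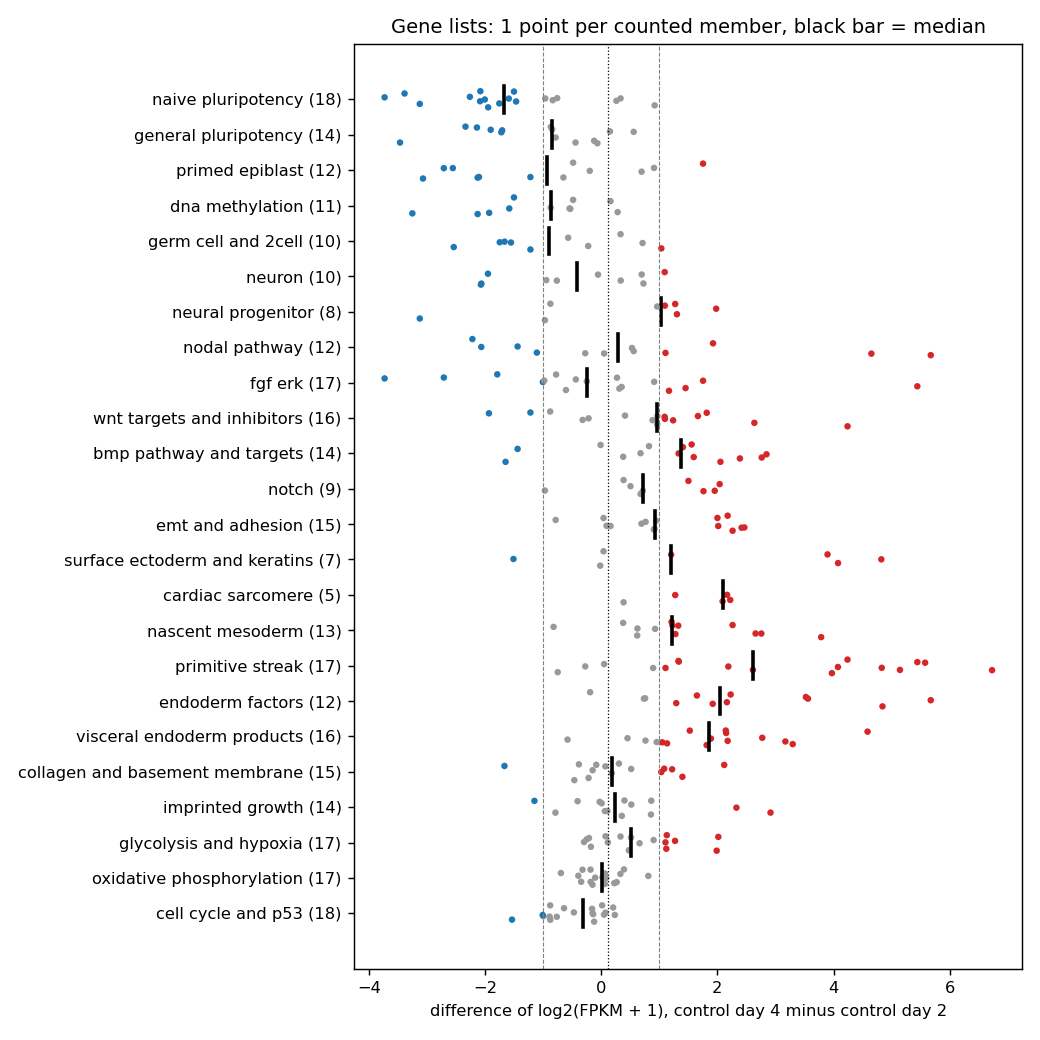
Each point is a counted gene of the list named at the left, with the number counted in brackets, at its difference of log2(FPKM + 1), control day 4 minus control day 2. Black bars are list medians, the dotted line is the median over all counted genes (0.12) and dashed lines mark 2-fold; the naive list lies mostly to the left (median -1.67) and the primitive streak list to the right (median 2.61).

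E-cadherin, Cdh1, had 132 FPKM at day 4 and 124 at day 2, a difference of 0.09 that becomes -0.02 after scaling to the median ratio. N-cadherin, Cdh2, had 32.3 FPKM at day 4 and 5.24 at day 2. Of 16 genes of adhesion and epithelial to mesenchymal transition, 15 were counted, 6 were higher and 0 lower, and the median was 0.92. Over all counted genes 9.63% were higher. The tight junction proteins Cldn6 and Cldn7 had 203 and 65.7 FPKM at day 4 and 49.4 and 13.8 at day 2, and the polarity protein Crb3 had 37.1 at day 4 and 5.90 at day 2. Vim, the mesenchymal intermediate filament, had 40.1 FPKM at day 4 and 35.7 at day 2. The higher members of this list thus include epithelial (Cldn6, Cldn7, Crb3) as well as mesenchymal genes (Snai1, Cdh2, Cdh11).

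Simple epithelial keratins were among the most changed abundant genes. Krt8 had 197 FPKM at day 4 and 6.00 at day 2, and its partner Krt18 had 166 at day 4 and 10.2 at day 2. Krt19 had 34.3 FPKM at day 4 and 1.09 at day 2. Of the 12 genes of the surface ectoderm and keratin list 7 were counted, 4 were higher, all 4 keratins of simple epithelia, and 1, Grhl2, was lower, with 7.06 FPKM at day 4 and 22.0 at day 2. The keratins of stratified epidermis, Krt5 and Krt14, had 0.00708 and 0.114 FPKM at day 4, and Trp63, the master factor of that tissue, had 0.0344. The trophoblast list had 4 higher genes of 7 counted out of 12, namely Eomes, Hand1, Cdx2 and Krt7, which 3 other lists also hold. Of these, Hand1, Cdx2 and Krt7 passed the filter through day 4 alone and so had to be higher there. The count thus describes and does not support. The defining placental genes Prl3d1 and Tpbpa were listed at 0 on both days.

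Neural genes gave no common direction. Of 20 neural progenitor genes 8 were counted, 4 were higher and 1 lower, with a median of 1.03, and the 12 others did not reach the filter. Nes, an intermediate filament of progenitors, had 13.8 FPKM at day 4 and 2.75 at day 2, and Msi1, an RNA-binding protein, had 14.5 at day 4 and 5.43 at day 2. Gbx2 was the lower one and passed the filter through day 2 alone, while the higher Zfp521 and Fabp7 passed it through day 4 alone. The early neural factors Sox21, Irx3 and Zic1 stayed below 1 FPKM on both days. Of 20 neuron genes 10 were counted, 1 was higher and 3 lower, with a median of -0.41. Tubb3, a neuronal tubulin, had 2.92 FPKM at day 4 and 15.4 at day 2, Ina, a neurofilament, had 6.07 at day 4 and 26.3 at day 2, and Neurod1 had 0.233 at day 4 and 4.19 at day 2. Of 10 neural crest genes 3 were counted, Twist1 and Ets1 higher and Foxd3 lower. Ets1 and Nefm, the higher neuron gene, passed the filter through day 4 alone, and Neurod1 through day 2 alone. For Gbx2, Zfp521, Fabp7, Ets1, Nefm and Neurod1 the filter thus set the direction.

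Signalling genes are given by ligand, receptor and target. Of the BMP ligands, Bmp7 had 8.11 FPKM at day 4 and 0.341 at day 2, and Bmp2 had 3.82 at day 4 and 0.162 at day 2. Both passed the filter through day 4 alone and so had to be higher there. Bmp4, above the filter on both days, had 6.44 FPKM at day 4 and 4.73 at day 2, short of 2-fold. Among targets, Msx1 had 15.7 FPKM at day 4 and 1.32 at day 2 and Id3 had 92.9 at day 4 and 36.3 at day 2. Id2, also a BMP target, was lower, with 8.19 FPKM at day 4 and 27.8 at day 2. Of the 16 BMP genes 14 were counted, 6 of them through day 4 alone, 8 were higher and 2 lower (Id2 and Smad7). The median was 1.37, and with those 6 genes count and median describe and do not support.

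Among Wnt genes the ligand Wnt3, which starts the streak, had 14.0 FPKM at day 4 and 1.46 at day 2. Of 16 Wnt targets and inhibitors, all counted and 5 of them through day 4 alone, 7 were higher and 2 lower, with a median of 0.97. Sp5, a direct target, had 26.9 FPKM at day 4 and 0.477 at day 2, Axin2, a feedback inhibitor, had 10.5 at day 4 and 2.63 at day 2, and Dkk1, a secreted antagonist, had 21.0 at day 4 and 2.53 at day 2. The lower genes were Notum, an enzyme that inactivates Wnt, with 1.19 FPKM at day 4 and 7.35 at day 2, and Lef1, with 6.63 at day 4 and 16.8 at day 2.

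The Nodal list was evenly split, with 4 higher and 4 lower of 12 counted. The higher genes included Cer1, the co-receptor Cfc1 and the nuclear partner Foxh1, and the lower ones were the inhibitors Lefty1 and Smad7, the ligand Gdf3 and the convertase Pcsk6. Cfc1 had 27.5 FPKM at day 4 and 0.135 at day 2. Cer1 and Cfc1 passed the filter through day 4 alone and so had to be higher there. Lefty1 had 38.1 FPKM at day 4 and 163 at day 2. The antagonists Cer1 and Lefty1 thus differed in opposite directions, by 5.67 and -2.06.

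FGF ligands also changed places. Fgf4 and Fgf15 were lower at day 4, with Fgf15 at 4.26 FPKM at day 4 and 33.4 at day 2, and Fgf8 and Fgf5 were higher. The summed FPKM of the 17 FGF and ERK genes was 567 at day 4 and 587 at day 2, and the ERK feedback gene Dusp6 had 58.5 FPKM at day 4 and 48.3 at day 2, while Spry4 had 8.29 at day 4 and 31.1 at day 2. In the list 4 were higher and 4 lower, with a median of -0.25. Of 9 counted Notch genes, from a list of 13, 4 were higher, where 9.63% of all counted genes were, and 0 lower. Among the higher ones was the target Hes1, with 42.9 FPKM at day 4 and 9.67 at day 2. For retinoic acid, Cyp26a1, the enzyme that degrades it, had 82.0 FPKM at day 4 and 0.688 at day 2. The main retinoic acid synthesising enzyme of the early embryo, Aldh1a2, had 0.321 FPKM at day 4 and 0.732 at day 2. Of the 12 retinoic acid genes 6 were counted, 3 were higher and 1, Rarg, lower.

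Metabolic and growth lists are set beside all counted genes, of which 9.63% were higher and 4.65% lower, 14.3% in all. A list count near these shares is no result about the list. Of 18 glycolysis and hypoxia genes 17 were counted and 6 were higher with 0 lower, and the median was 0.51. The glucose transporter Slc2a3 had 456 FPKM at day 4 and 114 at day 2, Ldha, lactate dehydrogenase, had 2167 at day 4 and 1006 at day 2, and Vegfa, a hypoxia target, had 13.5 at day 4 and 2.58 at day 2. Against this, 0 of 17 oxidative phosphorylation genes reached 2-fold, with differences between -0.69 and 0.81. Cholesterol synthesis genes were all within 2-fold, in 13 counted of 14, with a median of -0.49. Of 18 cell cycle and p53 genes 2 were lower, Ccne1, cyclin E, with 57.0 FPKM at day 4 and 167 at day 2, and Sesn2, with 13.6 at day 4 and 28.3 at day 2. Ribosomal protein genes had a median of 0.39 with 0 of 12 past 2-fold. Igf2, the imprinted fetal growth factor, had 33.4 FPKM at day 4 and 3.56 at day 2, and Cdkn1c, an imprinted cell cycle inhibitor, had 12.99 at day 4 and 30.1 at day 2. Of the 14 imprinted genes 11 were within 2-fold, where 85.7% of all counted genes were, 2 were higher and 1 lower, and the median was 0.23. Of 17 matrix genes 15 were counted, 5 were higher and 1 lower, with Col4a1 at 23.4 FPKM at day 4 and 8.26 at day 2 and Col18a1 at 30.5 at day 4 and 99.1 at day 2. That list's median of 0.18 becomes -0.18 after quantile normalisation.

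Genes at 5 FPKM or more in either library, small RNA, predicted, Rik and pseudogene symbols left out, were ranked by difference. The 2 genes lower by 16-fold, Gm9846 and Atp6v0c-ps2, carry such symbols. Gm9846 had 4.58 FPKM at day 4 and 352 at day 2, and Atp6v0c-ps2 was listed at 0 at day 4 and had 50.02 FPKM at day 2. Among the 10 widest higher genes of the ranking, Aplnr, the apelin receptor of nascent mesoderm, had 28.3 FPKM at day 4 and 0.0199 at day 2. Among its 10 widest lower ones, Hsd17b14, a steroid dehydrogenase, had 1.41 FPKM at day 4 and 26.8 at day 2, and Enox1 had 1.25 at day 4 and 19.8 at day 2. Rpl10l, a retrogene of a ribosomal protein, had 2.90 FPKM at day 4 and 40.4 at day 2. Nphs1 and Wt1, known from the kidney podocyte, had 0.808 and 0.927 FPKM at day 4 and 16.996 and 17.187 at day 2. Amd1, an enzyme of polyamine synthesis with near-identical copies in the genome, had 0.0441 FPKM at day 4 and 8.28 at day 2, and that value is uncertain.

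Some genes were high at day 4 alone. A set of 129 genes, 1.05% of those counted, was at least 2-fold above both control day 2 and control day 6, and both differences use the same day 4 library. Alox15, a lipoxygenase, had 0.933, 30.5 and 1.95 FPKM at days 2, 4 and 6, and Igfbp3, an IGF-binding protein, had 10.1, 147 and 21.2. Ppp4r4, a phosphatase subunit that neighbours Gsc on chromosome 12, had 2.03, 26.1 and 3.30. Interferon-inducible genes were among them. Gbp2, a guanylate-binding protein, had 3.23, 22.9 and 1.82 FPKM at days 2, 4 and 6, and Isg15, a ubiquitin-like protein, had 0.197, 8.78 and 0.734. A list of 26 interferon and antigen presentation genes was then drawn up with these values in view. Of 23 counted, 10 were higher and 0 lower at day 4 than at day 2, with a median of 0.94. Over all counted genes 9.63% were higher. At day 6, 13 were at least 2-fold lower than at day 4, where 3.05% of all counted genes were. The list was built around genes picked for being high at day 4, and both differences share that library. Its counts and median therefore describe and do not support. Psmb8, an immunoproteasome subunit, had 25.9 FPKM at day 4 and 4.44 at day 2, and Tap2, a peptide transporter, had 10.2 at day 4 and 2.44 at day 2. Ddx58 and Irf9 stayed within 2-fold. B2m, the light chain of MHC class I, did not return, with 12.2, 63.7 and 65.9 FPKM at days 2, 4 and 6.

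At day 6, set against day 4, 6.71% of all 12314 genes had changed by 2-fold or more, 3.66% upwards and 3.05% downwards. For the 1186 genes higher at day 4 than at day 2, day 6 was within 2-fold of day 4 for 916, at least 2-fold above it for 141 and below it for 129. For the 572 lower genes 494 were within 2-fold at day 6, 46 were above and 32 below. These counts share the day 4 library with the calls themselves. Hand1, with 0.280, 7.65 and 57.8 FPKM at days 2, 4 and 6, and Afp, with 0.0267, 3.64 and 53.3, were among those that went on. Eomes, with 4.36, 83.1 and 21.7, was among those that came down.

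The induced cultures offer the same days in libraries that the rule did not use. There, 201 of the 1186 higher genes (16.95%) were also at least 2-fold higher at day 4 than at day 2, where 2.28% of all genes counted in control were, and 12 were at least 2-fold lower. Of the 572 lower genes 105 (18.36%) were 2-fold lower in the induced cultures, where 1.79% of all were, and 9 were higher. Over the 12800 genes counted in the induced arm itself, 2.73% were higher and 2.36% lower, 5.09% in all. The median change of the higher genes was 1.34 in control and 0.51 in induced cultures, and that of the lower genes was -1.38 in control and -0.54 in induced cultures. The calls fixed every control change of these genes at 1 or more in size, and the induced changes were free. These medians therefore do not compare the arms. Over all counted genes the changes of the arms had a Pearson correlation of 0.61 across genes, which are not independent replicates. The difference between the arms was not tested, since each change rests on 1 library per day.

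The lists differed in how much of the control change was seen again. Members were counted by control FPKM, and those that passed through control day 4 alone had to be higher there. Their induced change was free. This holds for 10 of 16 visceral endoderm products, 8 of 13 nascent mesoderm, 9 of 17 streak and 6 of 12 endoderm members. The list medians of the arms are thus not on an equal footing. Streak genes had a median of 2.61 in control and 2.07 in induced cultures, and T had 135 FPKM at day 4 and 1.25 at day 2 in induced cultures. Cer1 changed by 5.67 in control and 5.64 in induced cultures. Visceral endoderm products had a median of 1.85 in control and -0.005 in induced cultures, where Ttr had 0.200 FPKM at day 4 and 0.0955 at day 2 and Apob had 0.148 at day 4 and 0.473 at day 2. Nascent mesoderm stood at 1.23 in control and 0.17 in induced cultures, with Hand1 at 0.608 FPKM at day 4 and 0.434 at day 2 in the induced ones. The naive list had a median of -1.67 in control and -0.26 in induced cultures, and Zfp42 there had 88.1 FPKM at day 4 and 106 at day 2. Endoderm factors lay between, at 2.04 in control and 0.94 in induced cultures. Krt19 changed by 4.08 in control and -0.17 in induced cultures, and Dppa5a by -2.26 in control and 0.51 in induced cultures.

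**Figure D4:**
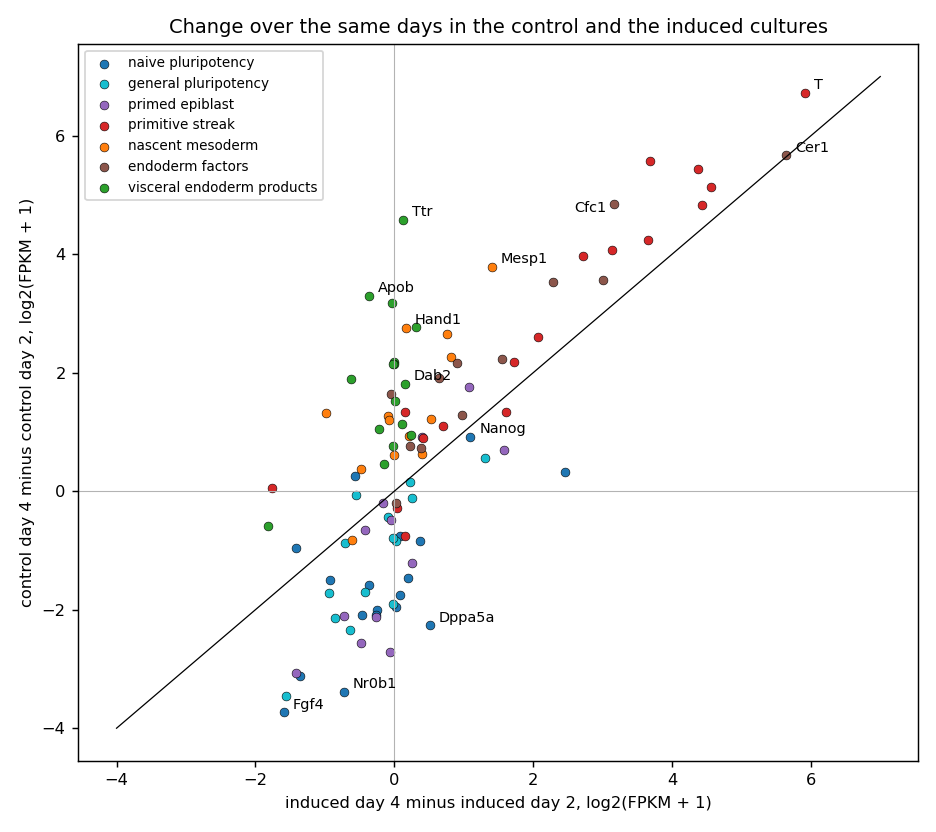
Each point is a counted gene of 7 lists, with the control change (day 4 minus day 2, log2(FPKM + 1)) on the vertical axis and the induced change over the same days on the horizontal axis; the line marks equal changes. T and Cer1 lie near the line, while Ttr, Apob and Hand1 lie high on the vertical axis close to 0 on the horizontal axis.

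Sites bound by Oct6 in induced cells at day 4 were not more frequent near the changed genes. A peak centre lay within 10 kb of the start site in 16.55% of higher genes (192 of 1160, interval 14.52 to 18.80%), in 13.66% of lower genes (75 of 549, 11.04 to 16.79%) and in 18.79% of counted genes with neither call (18.05 to 19.55%). The peaks come from cells that overexpress Oct6, so they do not show where Oct6 sits in control cells. Start-site windows of lower genes had a median GC content of 56.67%, against 60.33% in higher genes and 60.33% in the genes with neither call, and the CpG observed over expected ratio was 0.530, 0.636 and 0.769 in that order.

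By position, the X chromosome had the highest share of higher genes. Of 443 counted X-linked genes 78 were at least 2-fold higher, 17.61% (14.34 to 21.43%), against 9.33% (8.82 to 9.88%) of 11593 autosomal genes, and the median differences were 0.27 on X and 0.11 on autosomes. In induced cultures over the same days, 5.13% of X-linked genes (3.45 to 7.59%) and 2.57% of autosomal genes (2.30 to 2.87%) were higher. At control day 6, set against control day 4, 5.59% of X-linked and 6.08% of autosomal genes were higher. Intervals cover counting over genes alone, and neighbouring genes are not independent. The widest X-linked differences were those of Dgkk, a diacylglycerol kinase, Amot, an angiomotin of the Hippo pathway, and Cxx1c. Amot had 154 FPKM at day 4 and 13.003 at day 2, Gpc3, a heparan sulphate proteoglycan, had 122 at day 4 and 12.6 at day 2, and Apln, the ligand of Aplnr, had 15.5 at day 4 and 0.746 at day 2.

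**Figure D5:**
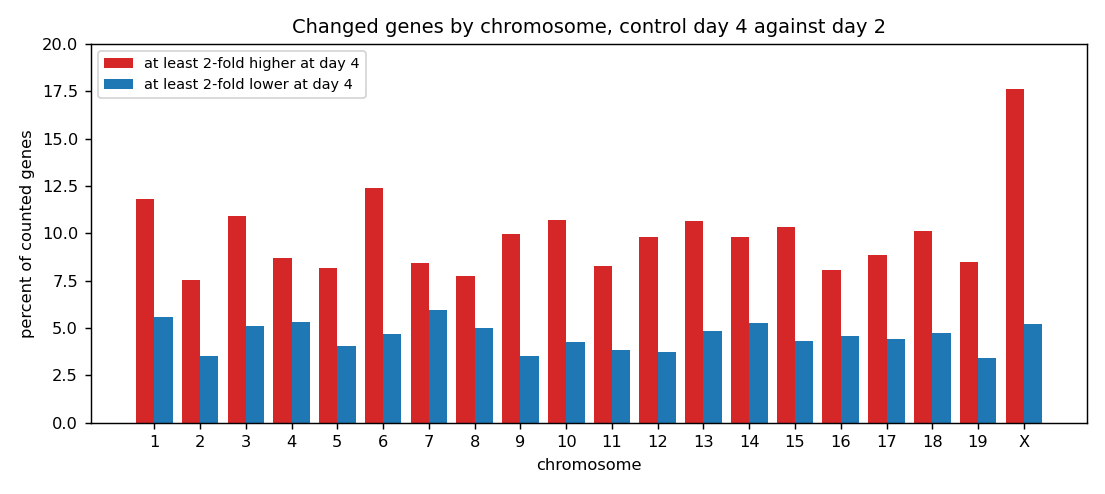
Percent of counted genes (vertical axis, from 0) that were at least 2-fold higher (red) or lower (blue) at control day 4 than at control day 2, by chromosome. The red bar of X (17.61%) is the tallest, and the blue bar of X (5.19%) is close to those of the autosomes.

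Neighbouring genes also shared a direction in places. Counted genes that follow each other on a chromosome formed 30 runs of 3 or more higher genes (102 genes) and 12 runs of lower ones (41 genes). Besides Larp7 and its microRNAs, the longest higher run was on X with 6 genes, Mospd1, Cxx1c, Cxx1a, Cxx1b, 1700013H16Rik and Zfp36l3 (chrX:50697775-51079571), of which the Cxx1 genes are close copies and their FPKM uncertain. The receptor tyrosine kinase genes Pdgfra, Kit and Kdr were neighbours on chromosome 5 (chr5:75548316-76374483), and Krt7, Krt8 and Krt18 on chromosome 15. Lower runs held Dppa4, Dppa2 and Morc1 on chromosome 16, Triml1, Triml2 and Zfp42 with Zfp353 on chromosome 8, and Dppa5a and Ooep with Gsta4 and Ddx43 on chromosome 9. Dnmt3l lay in a lower run with Aire and Icosl on chromosome 10. How many such runs an unordered genome would give was not tested, and overlapping transcripts such as Nphs1 and Nphs1as cannot be told apart without strand.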

How the data were processed

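RNA-seq libraries of control and induced embryoid bodies at days 2, 4 and 6 were deposited as 1 table of FPKM values per gene symbol, made by the authors. The tools named are Cufflinks 1.3.0 with Cuffdiff, TopHat 1.4.1 and HOMER, and the build is mm9, all per the submitters' processing notes. The deposited peak list gives a position and the authors' score for each of 7979 Oct6 peaks, and the score itself was not used. The strand setting and the handling of multi-mapping reads are not stated, and values of genes with close copies are uncertain.

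Differences were taken as log2(FPKM + 1) over genes with FPKM of 1 or more in either library, which understates the change of low genes. A gene that reached the filter in 1 library alone had to be higher in that library. An exact 0 can be a failed estimate, and 42 counted genes were listed at 0 in 1 of the 2 libraries. No test was made. Replicates are 1 per group. Relative depth was read from the smallest FPKM steps of genes under 0.3 FPKM, and the fragment numbers are estimates from annotated lengths. Start sites are the 5′ ends of GENCODE genes on NCBIM37 (mm9), matched by symbol for 97.77% of counted genes. The 95% intervals of shares are Wilson intervals and hold counting error alone.

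The members and the 33 gene lists were chosen with earlier results of these data known. The interferon list, the microRNA clusters, the X-linked genes, the runs and the printed promoters were chosen after values were seen. Named genes are the 10 widest in each direction with 5 FPKM or more in either library, without small RNA, predicted, Rik and pseudogene symbols, up to 5 per list, a fixed set of markers, genes that peak at day 4 and genes that differ most between arms. Further list members were named by role. A few list members are not reported here. The counting steps were tested on simulated data. Values were computed with pandas 2.3.3 and numpy 2.4.6 in Python 3.11.15, and figures were drawn with matplotlib 3.10.9. Other pseudocounts, filters, scalings, gene classes and folds were tried.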

Additional observations from a re-analysis of the deposited data

Results flagged for a closer look

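Among the genes changed in control, 21 changed by at least 2-fold in the opposite direction in induced cultures. Amd1 and Peg3 are those among the named genes. These differences were not tested, since each arm has 1 library per day. Amd1 differed by -3.15 in control and 3.52 in induced cultures, day 4 minus day 2, and had 0.0955 FPKM at day 6 in control. Near-identical copies of Amd1 make its value uncertain. Peg3, an imprinted zinc finger gene, differed by 2.33 in control, with 55.9 FPKM at day 4 and 10.3 at day 2, and by -1.28 in induced cultures, with 24.6 FPKM at day 4 and 61.1 at day 2.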

How the results depend on the processing

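No result has a replicate check, and no replicate could be left out. No paired analysis was possible because each group holds 1 library and the labels carry no replicate numbers. With a pseudocount of 0.1 the higher genes numbered 1793, and at 4-fold the counts were 195 higher and 101 lower. The higher share of changed genes was 52.53% after quantile normalisation. The median over all genes was 0.02 after median ratio scaling and -0.02 after quantile normalisation, a shift against which scaled values are to be read. Under scaling the small medians changed sign for the matrix list (-0.18, quantile), the fibroblast list (-0.03 by median ratio and -0.34 by quantile), oxidative phosphorylation (-0.09, median ratio) and the reference genes (-0.08, median ratio). With a pseudocount of 0.1 the medians were 4.22 for the streak, 2.70 for nascent mesoderm, 3.18 for visceral endoderm products, 3.42 for heart sarcomere, 1.99 for keratins, 1.99 for trophoblast and -2.82 for Hox. With no filter they were 1.76 for the streak, 0.24 for sarcomere, 0.037 for neural progenitors, 0.11 for neural crest, 0.044 for keratins, 0.43 for trophoblast, -0.091 for Hox and 0.13 for retinoic acid. With a filter of 5 FPKM they were 4.02 for the streak, 2.26 for mesoderm, 3.52 for endoderm factors, 1.90 for blood and endothelium, 3.90 for keratins, 2.76 for trophoblast, 2.19 for fibroblast markers and 1.63 for Notch, and the neural crest median turned to -0.44; fewer genes were then counted. Quantile normalisation gave -0.19 for Hox and 0.46 for retinoic acid. Settings for the shares below were added after seeing the data. The X-linked and autosomal percentages of higher genes were 24.15% and 14.18% with a pseudocount of 0.1, 8.08% and 5.29% with no filter, 13.64% and 6.37% after quantile normalisation and 3.16% and 1.52% at 4-fold. The autosomal one was 12.08% with a pseudocount of 0.5 and 8.08% after median ratio scaling. The share of higher genes also higher in induced cultures was 22.25% with a pseudocount of 0.1, 19.98% after quantile normalisation and 52.82% at 4-fold. The share of lower genes also lower there was 26.15% with a pseudocount of 0.1 and 31.68% at 4-fold. Peak and octamer shares stayed within their intervals in every setting tried. The runs, the GC values, the interferon list and the genes highest at day 4 were computed in 1 setting only.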
